A study of Mus musculus with 6 samples.

Results

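Monoamine and muscarinic receptors were followed as 10 genes of mouse prefrontal cortex, taken by symbol from the 45470 named genes of the series. They are the dopamine receptor genes Drd1, Drd2 and Drd5, the serotonin receptor genes Htr1a, Htr2a and Htr2c, the adrenergic receptor genes Adra2a and Adrb1, and the muscarinic acetylcholine receptor genes Chrm1 and Chrm3. Homogenised prefrontal cortex was taken at postnatal week 8 and its RNA sequenced, with 3 libraries from the heterozygous 16p11.2 duplication and 3 from wild type. The line was founded on a mix of C57BL/6N and 129Sv, was crossed to C57BL/6 for 10 generations, and both groups belong to that background. The labels do not tie the libraries to separate animals, litters or batches and give no sex, so p-values measure only the spread between these samples. A homogenate holds all cell types of the tissue.

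All 10 proteins are G protein-coupled receptors, through which dopamine, serotonin, noradrenaline and acetylcholine set how prefrontal neurons respond to fast synaptic input. Drd1, Drd5 and Adrb1 couple to Gs and raise cyclic AMP, Drd2, Htr1a and Adra2a couple to Gi and lower it, and Htr2a, Htr2c, Chrm1 and Chrm3 couple to Gq and activate phospholipase C. In prefrontal cortex Drd1 and Adra2a are known from work on working memory, Htr2a is the receptor of classical psychedelics on layer 5 pyramidal cells, and Chrm1 is the main muscarinic receptor of pyramidal cells.

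The deposited names had slipped against the counts for 65.1% of names, so each receptor was read at an offset of 0 to 6 lines, fixed by an earlier analysis of the same files and not estimated anew. The 10 names lay at least 643 lines from the nearest step, and in windows of 501 lines around each of them the offset that fitted best equalled the one used. Total counts were 14891890 to 21872271 in the duplication libraries and 12988457 to 14369271 in the wild type libraries. The tissue label was borne out by its markers: Slc17a7, the vesicular glutamate transporter of cortical pyramidal cells, averaged 996 CPM over the libraries, CPM being counts scaled to a common library size with TMM factors. Adora2a, a marker of striatal projection neurons that carry Drd2, had 11 to 22 counts in duplication libraries and 8 to 22 counts in wild type libraries, and the striatal gene Six3 had 0 counts throughout. The choroid plexus transcript Ttr had 1 to 8 counts in duplication libraries and 0 to 8 in wild type libraries. As a check of the genotype, 22 of 23 genes of the 16p11.2 interval had a positive log2 fold change, with a median of 0.75. Wild type replicate 2 stood apart from the other wild type libraries on the first principal component (45.5% of variance): duplication replicates 1 to 3 lay at 24.8, 17.8 and 7.23, against -27.2, 4.04 and -26.7 for wild type replicates 1 to 3. A mean level was taken over 292 tested genes of a pair of GENCODE classes, TEC (unspliced transcripts awaiting experimental testing) and sense intronic (transcripts lying in introns). This level was -0.44, -0.43 and -0.12 in the duplication libraries, against 0.47, -0.00042 and 0.53 in the wild type libraries (log2 around the mean), again with wild type replicate 2 nearest to the duplication libraries.

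No receptor of the 10 passed the comparison of duplication with wild type, and 2 had libraries that did not overlap: Htr2a was 1.26-fold higher and Adra2a 0.568-fold as high. In the edgeR quasi-likelihood test, adjusted over all 15398 genes tested, 0 of the 9 receptors that could be tested were called. The background was 0% higher and 0% lower in that test, in which no gene had an adjusted p below 0.129. It also called 0 of the 23 genes of the duplicated interval, although 20 of them were higher at an unadjusted p under 0.05. DESeq2 called 17 of these 23 genes higher. A receptor that edgeR did not call can therefore still differ between genotypes. At an unadjusted p under 0.05 there was 1 receptor higher and 1 lower, where 7.05% of all genes were higher and 12.2% lower. Libraries of the groups did not overlap for 1 receptor higher and 1 lower, where the background was 11.7% higher and 10.5% lower. DESeq2, which called 0.324% of genes higher and 1.68% lower, and limma-voom also called 0 of the 9. The median log2 fold change of the 9 was -0.06, against 0.0050 over all genes, with 3 positive and 6 negative. These shares lie near the background. Without both libraries numbered 2, receptors called were 1 higher (background 1.48%) and 2 lower (background 7.0%), and with no filter on low counts 1 higher (background 0.655%) and 1 lower (background 3.19%). In bulk tissue, fewer cells of a type and less RNA per cell cannot be told apart.

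**Figure D1:**
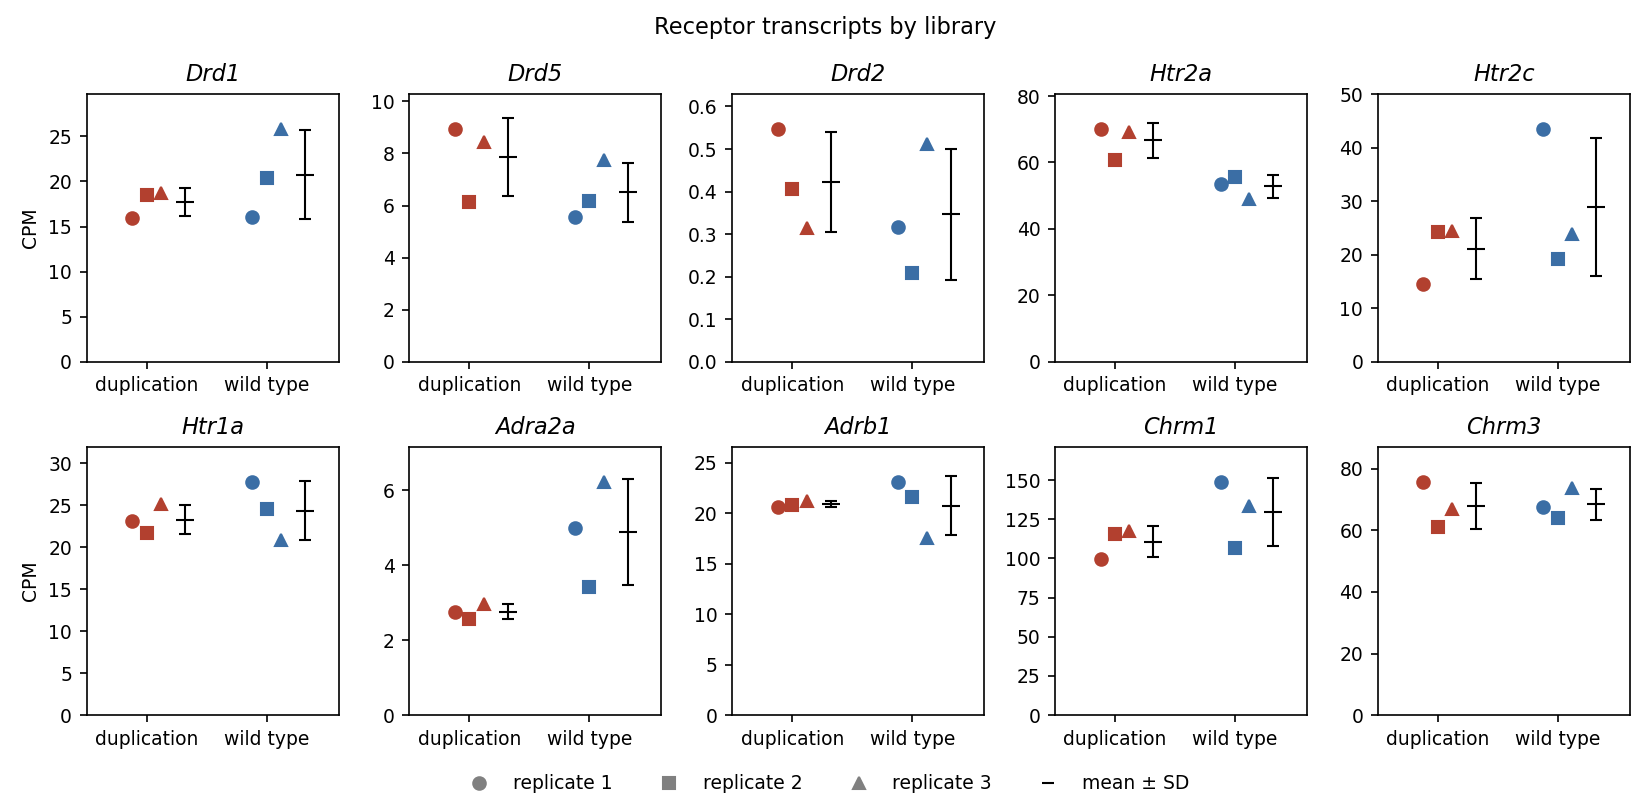
CPM of each receptor (vertical axis, from 0) in the 3 duplication and 3 wild type libraries, with symbols for replicate numbers and bars for the mean and SD of 3 libraries. All 3 duplication libraries lie above the wild type libraries for Htr2a (60.7 to 70.2 against 49.2 to 55.7 CPM) and below them for Adra2a (2.57 to 2.96 against 3.41 to 6.23 CPM); the other panels overlap.

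Among serotonin receptors, Htr2a had the receptors' smallest p. This Gq-coupled receptor (chromosome 14, 74640840 to 74709494, mm10) had 70.2, 60.7 and 69.2 CPM in duplication replicates 1 to 3, against 53.5, 55.7 and 49.2 CPM in wild type replicates 1 to 3. Each duplication library was above each wild type library. Htr2a averaged 66.7 ± 5.25 CPM in duplication and 52.8 ± 3.34 CPM in wild type libraries (SD, n = 3 each), a log2 fold change of 0.34 ± 0.08 (SE). Its edgeR adjusted p was 0.174 and its unadjusted rank was 182 of 15398, within the lowest 1.2% of genes. It passed without wild type replicate 2 (adjusted p = 0.0154), a setting in which edgeR called 4.65% of all genes higher and 10.7% lower. Meningeal markers moved with genotype too: their summed level over 10 genes was 37.5 to 73.0 CPM in duplication and 25.3 to 35.5 CPM in wild type libraries, with none at 0 and Col1a2 the most abundant. Their part in the Htr2a difference was not tested.

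Htr2c and Htr1a overlapped between genotypes. Htr2c, a Gq-coupled receptor also abundant in choroid plexus (chromosome X, 146962513 to 147197277), had 14.5, 24.3 and 24.5 CPM in duplication replicates 1 to 3, against 43.6, 19.2 and 24.0 CPM in wild type replicates 1 to 3. Wild type replicate 1 was the highest and duplication replicate 1 the lowest, and the other 4 libraries lay between 19.2 and 24.5 CPM. Its log2 fold change was -0.46 ± 0.30 (edgeR adjusted p = 0.418) and -0.04 when wild type replicate 1 was left out. It was -0.23 leaving out duplication replicate 1 and -0.69 leaving out wild type replicate 2. The summed level of choroid plexus markers was 3.70, 4.26 and 3.47 CPM in duplication replicates 1 to 3. It was 3.89, 5.22 and 2.86 CPM in wild type replicates 1 to 3. Only 1 of these 10 markers passed the filter on low counts, and their part in the Htr2c values was not tested. The introns of Htr2c hold microRNA and small nucleolar RNA genes on the same strand, among them Mir764, Mir1264, Mir1298, Mir1912, Mir448 and Snora35. Htr1a, the Gi-coupled receptor that is also the autoreceptor of raphe neurons (chromosome 13, 105443639 to 105448122), averaged 23.3 ± 1.71 CPM in duplication and 24.4 ± 3.49 CPM in wild type libraries. Its log2 fold change was -0.06, with a 95% interval of -0.32 to 0.19.

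Within a library, the ratio of Htr2a to Htr1a separated the groups. Per kilobase of exon, the log2 ratio was 1.28, 1.16 and 1.14 in duplication replicates 1 to 3, against 0.62, 0.86 and 0.92 in wild type replicates 1 to 3. All 3 duplication libraries were higher, by 0.39 on average. The log2 ratio of Htr2a to Htr2c overlapped, at 2.43 ± 0.51 in duplication and 1.69 ± 0.62 in wild type libraries (SD, n = 3 each). These ratios were set up with the values of the receptors known and were given no test.

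The upstream sequences of Htr2a and Htr1a are shown because their ratio separated the groups. They come from RefSeq (GRCm38.p6), read 5′ to 3′ on the plus strand, and stop before the annotated start of their gene. Capitals mark GGGCGG on either strand, the core of the GC box bound by SP1. The Htr2a window is chr14:74640624-74640839 and the Htr1a window chr13:105443443-105443638.
Htr2a: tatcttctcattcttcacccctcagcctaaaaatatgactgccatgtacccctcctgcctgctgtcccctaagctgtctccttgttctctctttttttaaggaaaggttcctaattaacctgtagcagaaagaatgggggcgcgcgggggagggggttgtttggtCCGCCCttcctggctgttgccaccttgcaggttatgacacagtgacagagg
Htr1a: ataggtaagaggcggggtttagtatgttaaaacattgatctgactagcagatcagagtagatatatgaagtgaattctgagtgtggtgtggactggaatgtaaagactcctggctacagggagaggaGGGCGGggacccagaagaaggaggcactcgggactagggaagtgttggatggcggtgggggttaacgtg
RefSeq promoter windows (250 bases before to 50 after a start) were found for 9 of the 10 receptors, 10 windows in all, as Drd1 has a window for each of 2 starts. GGGCGG was present in 8 of the 10 windows, Htr2a and Htr1a included, and in 35.7% of 32851 mouse windows of the same length. TATAAA, found in 13.6% of mouse windows, was present in 1, that of Adra2a. The E-box letters CANNTG, found in 72.3%, were present in 3, and TGACG, the core of the cyclic AMP response element, found in 20.8%, in 2, those of Adra2a and Adrb1. The Adra2a window (chr19:54045009-54045308) and 1 of the 2 Drd1 windows (chr13:54054731-54055030) lie inside the GENCODE span of their gene. Both strands were searched and the motifs can overlap. A match describes letters and is not a binding site.

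Of the adrenergic receptors, Adra2a had lower values in duplication libraries and Adrb1 did not. Adra2a, the Gi-coupled receptor targeted by guanfacine (chromosome 19, 54044151 to 54048982), had 2.74, 2.57 and 2.96 CPM in duplication replicates 1 to 3, against 5.002, 3.41 and 6.23 CPM in wild type replicates 1 to 3. Each duplication library was below each wild type library, and wild type replicate 2 was the nearest. In counts this was 60, 38 and 47 in duplication and 63, 49 and 85 in wild type libraries, so counting error is larger here than for the other tested receptors. The log2 fold change was -0.82 ± 0.22 (edgeR adjusted p = 0.174). Adra2a passed without wild type replicate 2 (log2 fold change -1.03, adjusted p = 0.00622), the setting with 10.7% of all genes called lower.

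Adra2a followed the TEC and sense intronic level. Both were highest in wild type replicate 3, then in wild type replicates 1 and 2, then in duplication replicate 3, and lowest in duplication replicates 1 and 2. When edgeR included this level as a term, the log2 fold change of Adra2a was 0.03 ± 0.32 and that of Htr2a 0.26 ± 0.14. The level was lower in every duplication library than in every wild type library, so it and genotype cannot be told apart in this design, and its part in the Adra2a difference was not tested. Adra2a is a gene of 1 exon in its longest transcript, and no other annotated gene overlaps it.

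Adrb1, a Gs-coupled receptor (chromosome 19, 56722199 to 56733113), was the steadiest receptor in duplication libraries. It averaged 20.9 ± 0.273 CPM in duplication and 20.8 ± 2.90 CPM in wild type libraries (SD, n = 3 each). Its log2 fold change was 0.01 with a 95% interval of -0.23 to 0.25, which leaves out a fold above 1.19 or below 0.854. The log2 ratio of Adra2a to Adrb1 per kilobase was -3.43, -3.53 and -3.35 in duplication replicates 1 to 3. It was -2.72, -3.18 and -2.01 in wild type replicates 1 to 3, with no overlap. Adra2a alone already separated the groups, and the ratio was given no test.

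**Figure D2:**
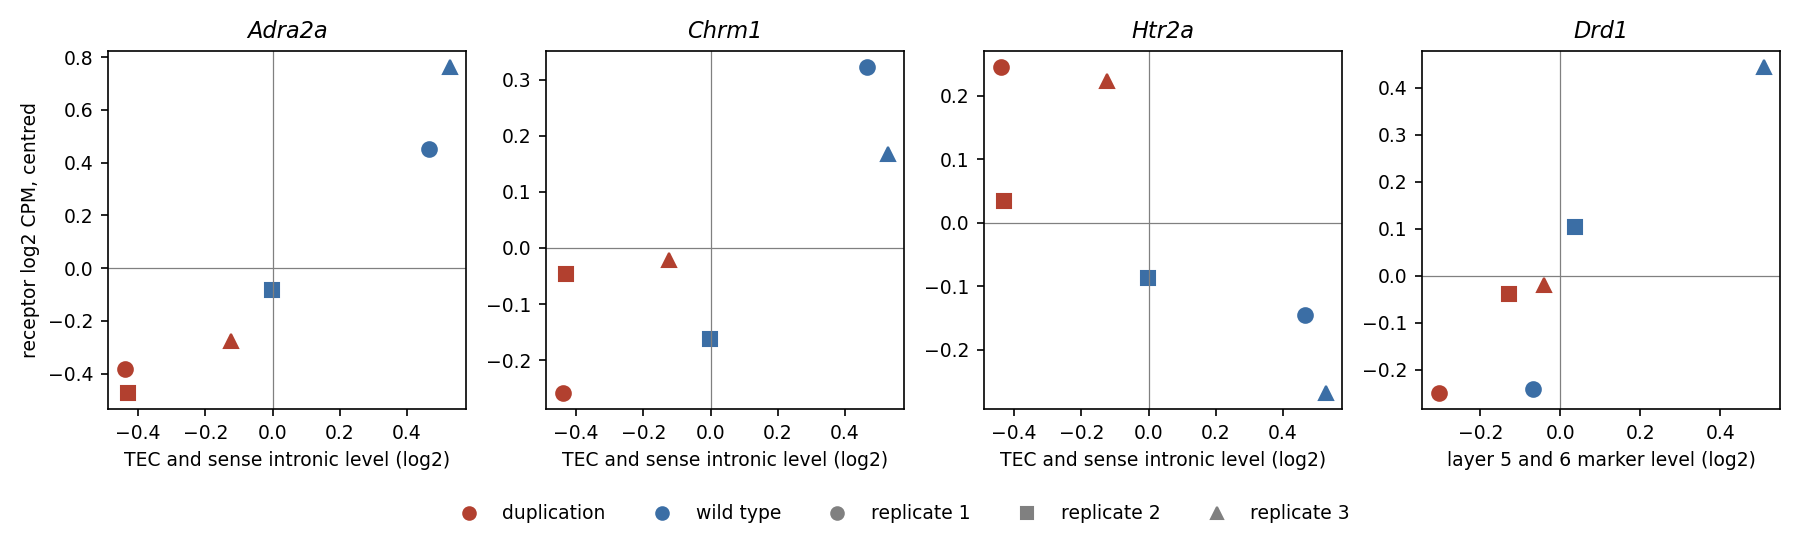
Centred log2 CPM of Adra2a, Chrm1 and Htr2a against the TEC and sense intronic level, and of Drd1 against the mean level of layer 5 and 6 markers, with 1 point per library (red duplication, blue wild type). Adra2a is highest (0.76) where the intronic level is highest (0.53, wild type replicate 3), and Drd1 is highest (0.44) where the layer marker level is highest (0.51, wild type replicate 3).

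The muscarinic receptors did not separate the genotypes. Chrm1 (chromosome 19, 8663789 to 8683587) had 99.6, 115 and 117 CPM in duplication replicates 1 to 3, against 149, 106 and 134 CPM in wild type replicates 1 to 3. Wild type replicate 2 lay among the duplication libraries, and wild type replicates 1 and 3 lay above all 4. The log2 fold change was -0.23 ± 0.12 (edgeR adjusted p = 0.325). Without wild type replicate 2 Chrm1 passed as lower (-0.35, edgeR adjusted p = 0.0206), the setting with 10.7% of all genes called lower. Without wild type replicate 1 it was at -0.12, and with the TEC and sense intronic level as a covariate it was at 0.24 ± 0.15. Chrm1 overlaps the small RNA gene Gm22820 on the opposite strand.

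Chrm3, the Gq-coupled receptor of the largest gene among the 10 (chromosome 13, 9875486 to 10360847), averaged 67.8 ± 7.44 CPM in duplication and 68.4 ± 4.95 CPM in wild type libraries. Its log2 fold change was -0.0089, with a 95% interval of -0.22 to 0.20, and its sign turned under several settings, upper-quartile factors and library size only among them. Annotated noncoding genes such as 9330159N22Rik on the same strand and Gm26861 on the opposite strand overlap Chrm3. These overlaps were taken over whole gene spans, introns included, and whether reads were counted by strand is not stated. How far reads of these genes enter the Chrm3 counts is therefore not known. The log2 ratio of Chrm1 to Chrm3 per kilobase overlapped between groups, at 0.66 ± 0.28 in duplication and 0.86 ± 0.21 in wild type libraries.

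The dopamine receptors spanned a wide range of levels and none separated the genotypes. Drd1 (chromosome 13, 54051183 to 54055705), a Gs-coupled receptor of layer 6 and other deep-layer cells, had 15.9, 18.5 and 18.7 CPM in duplication replicates 1 to 3, against 16.0, 20.4 and 25.9 CPM in wild type replicates 1 to 3. Wild type replicate 3 was highest, and wild type replicate 1 was close to the lowest library. The log2 fold change was -0.24 ± 0.16 (edgeR adjusted p = 0.429), -0.05 without wild type replicate 3 and -0.39 without wild type replicate 1.

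Drd1 was highest in the library where most deep-layer markers were highest. Of 12 such markers 9 were highest in wild type replicate 3, while Crym was highest in duplication replicate 2, Pcp4 in duplication replicate 3 and Tshz2 in wild type replicate 1. Their summed level (12 genes, none at 0, Crym the most abundant) was 468 to 554 CPM in duplication and 550 to 702 CPM in wild type libraries, highest in wild type replicate 3 and lowest in duplication replicate 1, as for Drd1. Among 14476 tested genes with a mean of at least 1 CPM, the one whose centred log2 CPM profile lay nearest to that of Drd1 was Tle4, a corepressor gene used as a layer 6 marker, with a mean absolute difference of 0.043 over the 6 libraries. Tle4 had 66.9, 80.0 and 81.9 CPM in duplication replicates 1 to 3, against 73.4, 92.2 and 118 CPM in wild type replicates 1 to 3. Wild type replicate 3 also had the highest sum of oligodendrocyte markers (2290 CPM, against 1191 to 1636 CPM in the other libraries) and the lowest sum of layer 2 to 4 markers (521 CPM, against 629 to 723 CPM). The part of these levels in the Drd1 values was not tested.

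Drd5, the other Gs-coupled dopamine receptor (chromosome 5, 38319367 to 38322518), had 8.96, 6.15 and 8.45 CPM in duplication replicates 1 to 3, against 5.56, 6.19 and 7.77 CPM in wild type replicates 1 to 3. Duplication replicates 1 and 3 were above all wild type libraries and duplication replicate 2 was not. Its log2 fold change was 0.28 ± 0.18 (edgeR adjusted p = 0.404). It was 0.17 without duplication replicate 1, 0.42 without duplication replicate 2, 0.18 without wild type replicate 1 and 0.43 without wild type replicate 3. Gm26560 overlaps Drd5 on the opposite strand. The log2 ratio of Drd1 to Drd5 per kilobase was 0.99 ± 0.38 in duplication and 1.46 ± 0.11 in wild type libraries (SD, n = 3 each), and the groups overlapped.

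Drd2, the Gi-coupled receptor of striatal neurons and some cortical cells (chromosome 9, 49340627 to 49408177), had 12, 6 and 5 counts in duplication and 4, 3 and 7 counts in wild type replicates 1 to 3. These counts were too low for the filter, so Drd2 was not tested, and its levels of 0.423 ± 0.117 CPM in duplication and 0.346 ± 0.154 CPM in wild type libraries differed by less than their spread.

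**Figure D3:**
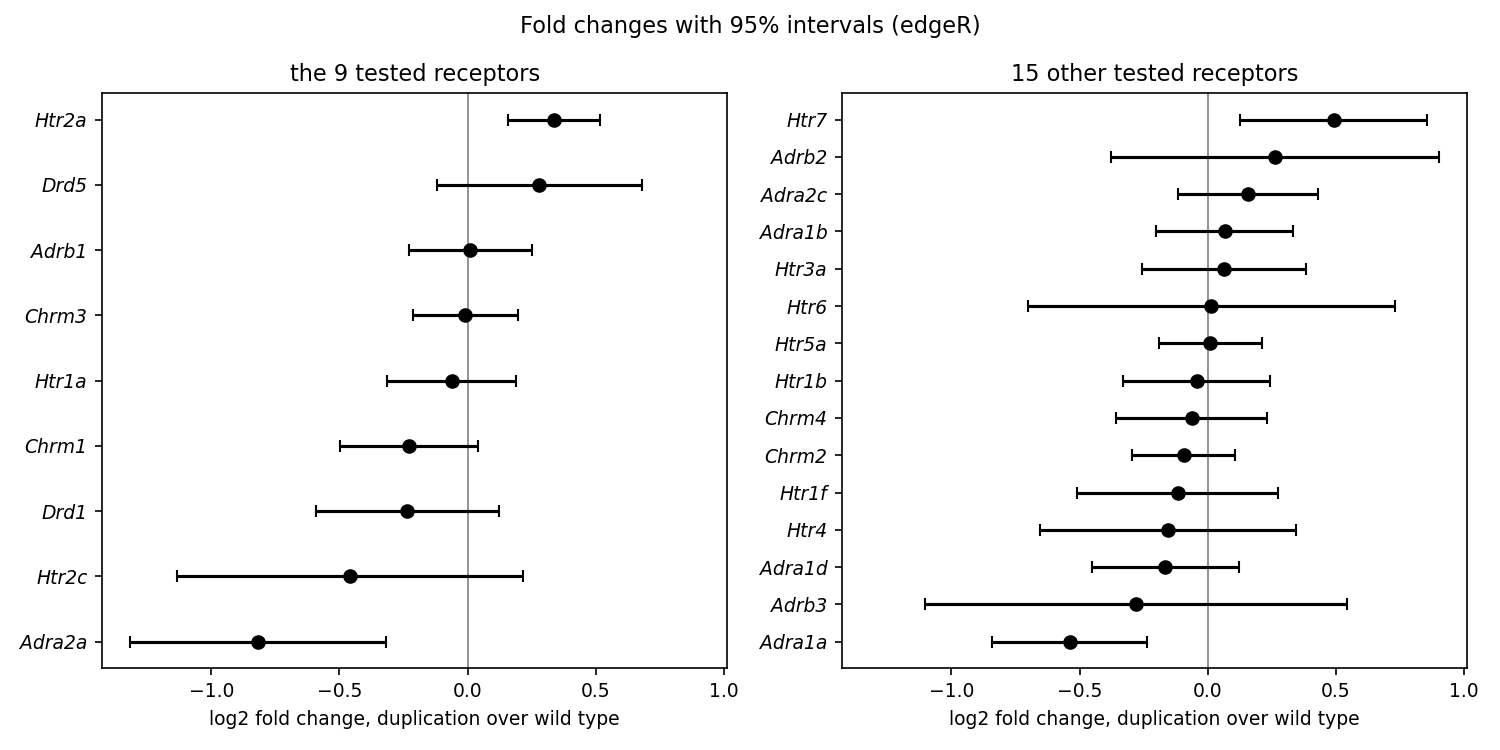
Log2 fold changes of duplication over wild type with 95% intervals (edgeR) for the 9 tested receptors (left) and 15 other tested monoamine and muscarinic receptors (right). Intervals leave out 0 for Htr2a (0.16 to 0.52) and Adra2a (-1.32 to -0.32) on the left and for Htr7 and Adra1a on the right; none passed after adjustment over all genes.

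Per kilobase of merged exons, Chrm1 was the most abundant of the 10 receptors in both genotypes and Drd2 the least. In duplication libraries Chrm1 averaged 17.1 ± 1.503, Htr2a 11.9 ± 0.937, Chrm3 10.8 ± 1.19, Adrb1 6.18 ± 0.0808, Htr1a 5.19 ± 0.381 and Drd1 4.88 ± 0.423 CPM per kilobase (SD, n = 3). Below them lay Drd5 at 2.49 ± 0.474, Htr2c at 2.27 ± 0.613, Adra2a at 0.571 ± 0.0409 and Drd2 at 0.166 ± 0.0461 CPM per kilobase. The ranges of the neighbours Htr2a and Chrm3, Htr1a and Drd1, and Drd5 and Htr2c overlapped across these libraries.

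In wild type libraries the order was Chrm1 at 19.99 ± 3.32, Chrm3 at 10.9 ± 0.791, Htr2a at 9.42 ± 0.596, Adrb1 at 6.14 ± 0.858, Drd1 at 5.72 ± 1.36 and Htr1a at 5.43 ± 0.779 CPM per kilobase. Htr2c followed at 3.10 ± 1.39, Drd5 at 2.06 ± 0.361, Adra2a at 1.01 ± 0.292 and Drd2 at 0.136 ± 0.0605 CPM per kilobase. From Adrb1 to Drd5 each receptor overlapped the next. The order of Htr2a and Chrm3 rested on the length used. Per kilobase of merged exons, Htr2a was above Chrm3 in 3 of 3 duplication libraries and in 0 of 3 wild type libraries, with log2 ratios of 0.05, 0.15 and 0.21 in duplication replicates 1 to 3, against -0.18, -0.04 and -0.43 in wild type replicates 1 to 3. Per kilobase of the longest transcript, which is 4336 bases for Chrm3 in place of 6253, Htr2a was below Chrm3 in all 6 libraries, at -0.48, -0.38 and -0.32 in duplication and -0.70, -0.57 and -0.95 in wild type replicates 1 to 3. With either length the ratios of the genotypes did not overlap, since the length cancels between genotypes. This pair was picked after its values were seen.

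**Figure D4:**
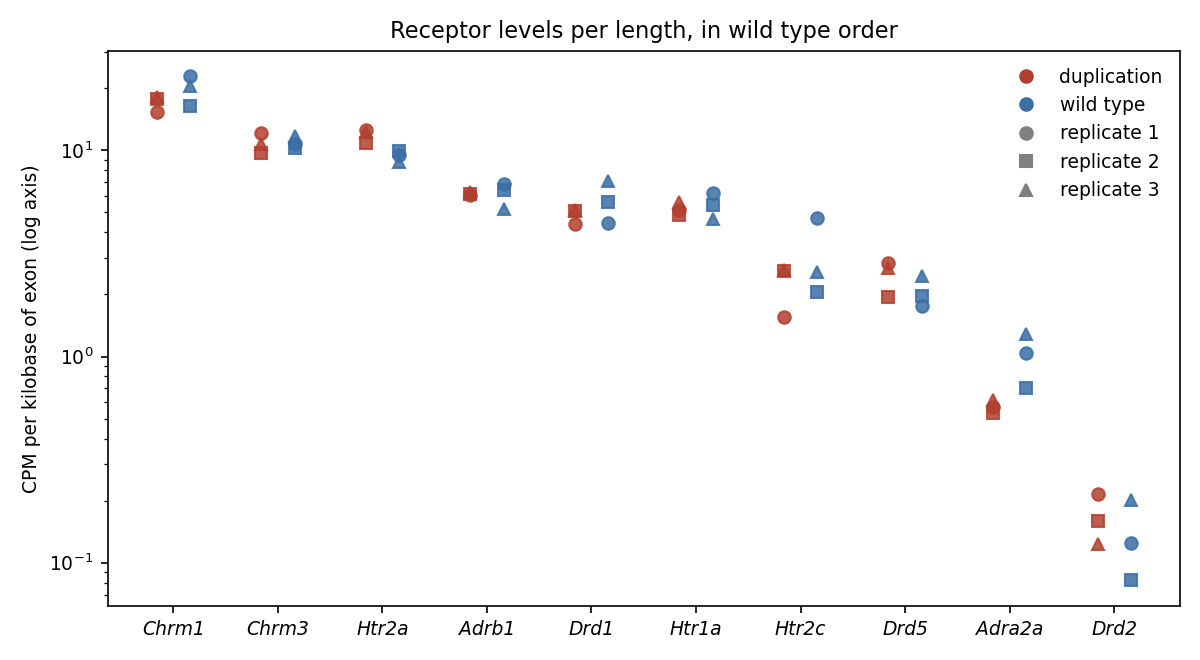
Level of each receptor in CPM per kilobase of merged exons (log axis) in each library, ordered by the wild type mean. Chrm1 is highest (17.1 in duplication, 19.99 in wild type) and Drd2 lowest (0.166 in duplication, 0.136 in wild type).

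Summed by G protein, the balance of these 10 receptors was close to even between genotypes. Other receptors, Adra1d and Chrm4 among them, are left out of these sums. Gq-coupled receptors made up 68.4 ± 0.236% of the summed level of the 10 in duplication and 67.8 ± 2.28% in wild type libraries (SD, n = 3 each). Gs-coupled receptors made up 22.0 ± 0.0906% in duplication and 21.9 ± 2.50% in wild type, and Gi-coupled receptors 9.63 ± 0.317% in duplication and 10.3 ± 0.701% in wild type libraries. The sum of all 10 was 61.6 ± 2.35 CPM per kilobase in duplication and 63.9 ± 4.78 in wild type libraries, and the groups overlapped in the summed level of every class. By transmitter, serotonin receptors made up 31.6, 30.6 and 32.04% of the sum in duplication replicates 1 to 3, against 29.9, 29.7 and 24.7% in wild type replicates 1 to 3. The 3 duplication libraries had the higher shares on merged exons, with no overlap and no test, while the shares of the other classes overlapped. This separation rested on the length used. Per kilobase of the longest transcript, serotonin shares were 30.6 ± 0.814% in duplication and 28.3 ± 3.20% in wild type libraries, and the groups overlapped. With the longest transcript as the length, Gq-coupled receptors summed to 49.5 ± 1.73 CPM per kilobase in duplication and 51.8 ± 6.10 in wild type libraries, where merged exons gave 42.1 ± 1.47 in duplication and 43.4 ± 4.67 in wild type libraries. On merged exons, acetylcholine receptors made up 45.4 ± 0.669% in duplication and 48.2 ± 2.63% in wild type libraries.

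The receptors differ in gene structure. Htr1a, Drd5, Adra2a and Adrb1 have 1 exon in their longest transcript, whereas Htr2c has 7 and Drd2 has 8. Chrm3 spans 485 kb and Htr2c 235 kb, against 4.8 kb for Adra2a. The GC content of the longest transcript was lowest for Htr2a at 41.3% and highest for Adrb1 at 58.8% and Adra2a at 58.6%. Over tested protein-coding genes grouped by low, middle and high GC, the median log2 fold changes were 0.027, 0.0098 and 0.0033. The part of GC content in the receptor values was not tested.

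Other tested genes had profiles close to single receptors by the same measure, the mean absolute difference of centred log2 CPM over the 6 libraries. Rpp14, at 0.034, and Tmem196, at 0.035, were nearest to Htr2a, with log2 fold changes of 0.28 and 0.32. The long intergenic noncoding RNA genes Gm9801, at 0.071, and Gm9916, at 0.072, were nearest to Adra2a, with log2 fold changes of -0.71 and -0.93. Slc45a4 (0.016) and Phyhip (0.019) were nearest to Chrm1, Cthrc1 (0.016) and Tbcel (0.024) to Chrm3, and Ptgfrn (0.028) and Pramef8 (0.028) to Adrb1. Scube1 was nearest to Htr2c at 0.12, ahead of RP23-407I6.6 at 0.13, and Dpp4 and Kif23 to Drd5 at 0.058 and 0.067. Prss12 was second to Tle4 for Drd1, at 0.045, and for Htr1a the nearest were RP23-195B3.5 (0.026) and Mina (0.035). The search covered 14476 genes with a mean of at least 1 CPM, and the 6 values of each gene share the differences between libraries described above.

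The other monoamine and muscarinic receptors were counted next. Of 23 named genes 15 were tested and 0 passed in edgeR, and the median log2 fold change was -0.04. At an unadjusted p under 0.05, 1 was higher and 1 lower, where 7.05% of all genes were higher and 12.2% lower. Adra1a, a Gq-coupled adrenergic receptor, had 24.0, 28.1 and 28.1 CPM in duplication replicates 1 to 3, against 46.0, 31.4 and 39.0 CPM in wild type replicates 1 to 3, all duplication libraries being lower. Its log2 fold change was -0.54 ± 0.13 (edgeR adjusted p = 0.174). DESeq2 called Adra1a lower (adjusted p = 0.0228), where 1.68% of genes were called lower. It was at -0.06 ± 0.20 when edgeR included the TEC and sense intronic level. Htr7, a Gs-coupled serotonin receptor, had 10.1, 7.84 and 6.94 CPM in duplication and 6.03, 5.50 and 6.37 CPM in wild type replicates 1 to 3, a log2 fold change of 0.49 ± 0.16 (edgeR adjusted p = 0.179) that was 0.31 without duplication replicate 1. The most abundant per kilobase were Adra1d, at 11.4 in duplication and 12.8 in wild type libraries, and Chrm4, at 9.91 in duplication and 10.4 in wild type libraries, with log2 fold changes of -0.17 and -0.06, and Adra2c was at 0.16. Adra2c, the relative of Adra2a, had a per-kilobase level of 5.82 in duplication and 5.22 in wild type libraries, and its groups overlapped. The difference between Adra2c and Adra2a was not tested.

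Among nicotinic receptor subunits, the channels that acetylcholine opens, 5 of 9 genes were tested and 0 passed in edgeR, with a median of -0.10. At an unadjusted p under 0.05, 1 was lower, where 12.2% of all genes were lower. Chrna4, a subunit of the main heteromeric receptor of cortex, had 19.2, 24.5 and 30.0 CPM in duplication replicates 1 to 3, against 47.2, 29.6 and 48.9 CPM in wild type replicates 1 to 3. It was at -0.78 ± 0.21 (edgeR adjusted p = 0.174). DESeq2 called Chrna4 lower (adjusted p = 0.0104), where 1.68% of genes were called lower. With the TEC and sense intronic level as a covariate Chrna4 was at 0.19 ± 0.18. Its partner Chrnb2, the most abundant per kilobase over all 6 libraries though not in wild type alone, was at -0.09 ± 0.07, Chrna7 at 0.06 ± 0.08 and Chrna5 at -0.34 ± 0.31.

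Genes that make, carry and break down the transmitters were measured for 17 of 18 list members, of which 10 were tested, 0 passed and 2 were higher at an unadjusted p under 0.05 (edgeR), where 7.05% of all genes were higher. Transcripts of monoamine and cholinergic cell bodies were scarce, with 21 counts of the dopamine transporter gene Slc6a3, 5 of the serotonin transporter gene Slc6a4 and 19 of Chat over all 6 libraries. Th, which encodes the rate-limiting enzyme of catecholamine synthesis, had 1.64, 3.58 and 1.58 CPM in duplication and 6.19, 1.74 and 2.12 CPM in wild type replicates 1 to 3, so wild type replicate 1 was highest for both Th and Htr2c. Bche, butyrylcholinesterase, had 9.55, 5.54 and 5.17 CPM in duplication replicates 1 to 3, against 3.65, 3.90 and 4.396 CPM in wild type replicates 1 to 3. All duplication libraries were higher, at 0.79 ± 0.25, and it did not pass (edgeR adjusted p = 0.175). Without duplication replicate 1 it was at 0.43. Summed meningeal markers were also highest in that library, at 73.0, 46.9 and 37.5 CPM in duplication and 26.7, 25.3 and 35.5 CPM in wild type replicates 1 to 3, and their part in the Bche values was not tested. Maoa, monoamine oxidase A, was at 0.08 ± 0.08.

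Downstream of the receptors 0 genes passed in edgeR. Of 16 tested G protein subunits 1 was higher and 1 lower at an unadjusted p under 0.05 (median 0.06). They were Gnai1, an inhibitory alpha subunit, at 0.18 ± 0.06, and Gnao1, the abundant Go alpha subunit, at -0.39 ± 0.14. Gnaq, the alpha subunit that serves Htr2a, Chrm1 and Chrm3, was at -0.20 ± 0.09, Gnb5 at 0.14 ± 0.08 and Gnb1, the most abundant per kilobase, at 0.0053 ± 0.05. Of 28 tested effectors 1 was higher and 5 lower at an unadjusted p under 0.05 (median -0.04), where 7.05% of all genes were higher and 12.2% lower. The cyclic AMP phosphodiesterase gene Pde4d was at -0.37 ± 0.11, the adenylyl cyclase genes Adcy8 and Adcy3 at -0.21 ± 0.08 and -0.22 ± 0.09, and Prkacb, a catalytic subunit of protein kinase A, at 0.15 ± 0.05. The abundant Prkar1b and Adcy1 were at 0.11 ± 0.06 and 0.07 ± 0.08.

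Genes that end receptor signalling were tested for 18 of 18 list members, with a median of 0.03. At an unadjusted p under 0.05, 1 was higher and 0 lower, where 7.05% of all genes were higher and 12.2% lower. Rgs10, a regulator that speeds GTP hydrolysis by Gi-type subunits, had 17.7, 16.4 and 17.7 CPM in duplication replicates 1 to 3, against 12.1, 14.4 and 12.6 CPM in wild type replicates 1 to 3. All duplication libraries were higher, at 0.40 ± 0.10 (edgeR adjusted p = 0.174). The receptor kinase gene listed as Adrbk1 was at -0.0092 ± 0.06, the arrestin gene Arrb1 at -0.08 ± 0.05, Rgs4, the most abundant of the list per kilobase, at 0.16 ± 0.10, Rgs12 at 0.14 ± 0.08 and Rgs20 at -0.18 ± 0.10.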

How the data were processed

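Gene counts came from 6 libraries of prefrontal cortex RNA, prepared with Ribo-zero and TruSeq stranded total RNA kits (Illumina), per the labels' protocols. The authors deposited raw counts per gene, with no normalization; cutadapt, TopHat2, HTSeq and the build mm10 are named, without versions, per the submitters' processing notes. The annotation and the strand setting are not given in any source used here. Each library's separate table held 45801 named values, all equal to those of the joint table, which has 45807 lines of counts and 6 blank names. Names were moved by offsets of 0 to 6 lines at steps taken from an earlier analysis of these files; only the offset around each receptor was checked here. Names within 25 lines of one of the 6 steps, and 25 date-like names, were not used, which left 337 lines (0.909% to 0.954% of counts) out of library sizes and tests. Dbh was among the names not used. No column was left unused.

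The genotypes were compared in R 4.3.3 by edgeR 4.0.16 (TMM, filterByExpr by group, quasi-likelihood F-test, Benjamini-Hochberg adjusted p under 0.05 over all genes tested); CPM uses TMM-scaled library sizes, and log2 CPM a prior count of 2. DESeq2 1.42.0 and limma 3.58.1 were alternatives. Fold changes are duplication over wild type, ± SE. Gene positions and exon lengths are those of GENCODE M21, same build. The edgeR step was tested on simulated counts.

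The receptors and lists were chosen with earlier results of these data known. Genes named are the 10 receptors, of each list the 4 with the smallest p and the 2 most abundant per kilobase, those called, and for each tested receptor the 2 nearest profiles among genes with a mean of at least 1 CPM; others are named as markers or relatives, chosen after their values were seen. A result that this rule would name is not reported here. Libraries with the same number were not paired by the labels.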

Additional observations from a re-analysis of the deposited data

How the results depend on the processing

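The 9 tested receptors were refitted under up to 18 settings each, which gave 160 values: 134 kept direction and side of the threshold, 8 passed the threshold and 18 turned sign. Receptors called were 1 higher and 1 lower with no filter on low counts, 1 and 2 without both libraries numbered 2, and, leaving out 1 library at a time, 0 to 1 higher and 0 to 2 lower, the highest without wild type replicate 2. They were Htr2a as higher and Adra2a as lower in each of these, with Chrm1 as lower in the last 2. Of the genes of the other lists, 2 higher and 5 lower were called with no filter, 1 and 8 without both libraries numbered 2, 0 and 2 in DESeq2, and 0 to 5 higher and 0 to 9 lower leaving out 1 library. Over all genes the counts were 46 higher and 239 lower in DESeq2, 173 and 843 with no filter, 230 and 1090 without both libraries numbered 2, and 0 to 730 and 0 to 1676 leaving out 1 library. With the replicate number as a block, 6 genes were higher and 1 lower, none of them a receptor or list gene, and Htr2a and Adra2a had adjusted p of 0.192 and 0.174. Same-numbered libraries correlated at 0.10, 0.063 and 0.31 in their deviations from the group means. Libraries with different numbers correlated at -0.28 to 0.16. Whether same-numbered libraries share more than a number was not tested.

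With the TEC and sense intronic level as a covariate these turned sign: Htr2c 0.48, Adra2a 0.027, Adrb1 -0.090, Chrm1 0.24, Chrm3 0.11, Adra1d 0.15, Adra2c -0.28, Chrm4 0.23, Chrna4 0.19, Chrna5 0.085, Chrna7 -0.033, Th 0.11, Maoa -0.086, Gnao1 0.18, Gnaq 0.16, Gnb5 -0.022, Adcy3 0.049, Rgs4 -0.13 and Rgs12 -0.027. Names as deposited put another gene's counts beside Adra2a (0.18), Adrb1 (-0.079) and Chrm1 (1.54). Chrm3 was at 0.018 with upper-quartile factors, 0.0065 with library size only, 0.0012 with no filter and 0.019 without both libraries numbered 2, and Adrbk1 at 0.016, 0.0055, 0.00068 and 0.0069 in the same settings. Without both libraries numbered 2 Chrm4 was at 0.016 and Gnb1 at -0.0033. Leaving out 1 library at a time, Htr1a ranged over -0.17 to 0.040, with the sign turned without wild type replicate 1. Adrb1 ranged over -0.099 to 0.092, with the sign turned without duplication replicate 3 or wild type replicate 3. Chrm3 ranged over -0.095 to 0.063, with the sign turned without duplication replicate 2 or duplication replicate 3 or wild type replicate 3. Chrm4 ranged over -0.16 to 0.063, with the sign turned without duplication replicate 2. Chrna5 ranged over -0.64 to 0.11, with the sign turned without wild type replicate 3. Th ranged over -1.03 to 0.20, with the sign turned without wild type replicate 1. Gnb1 ranged over -0.013 to 0.033, with the sign turned without wild type replicate 2 or wild type replicate 3. Adrbk1 ranged over -0.030 to 0.012, with the sign turned without duplication replicate 3 or wild type replicate 2. The cause was not tested. Of the 9 steps in the order of receptor levels averaged over all 6 libraries, 7 to 9 held leaving out 1 library and 8 with the longest transcript as the length. Within genotypes the longest transcript kept 7 steps in duplication, losing Htr2a over Chrm3 and Drd5 over Htr2c, and 8 in wild type, losing Htr1a over Htr2c; these counts were added after the data were seen. The log2 ratio of duplication to wild type of each class sum moved by less than the spread between libraries, while the sums themselves moved with the length. Depth limits Drd2 and Adra2a most.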
